A study of Mus musculus with 4 samples.

Results

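The 9 immediate-early response genes Fos, Jun, Junb, Jund, Egr1, Ier2, Ier5, Atf3 and Btg2 were followed site by site in maps of N6-methyladenosine (m6A), the methyl mark at the N6 position of adenosine in RNA. They were chosen by name, and all 9 were listed in at least 1 library, out of 20001 gene names in the tables. The maps came from GLORI, a chemistry that turns unmethylated adenosine into inosine, which is sequenced as G, while m6A is still read as A. The level of a site is therefore its share of A reads among its A and G reads.

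The RNA was polyA RNA of mouse retinal organoids at day 6. All 4 libraries came from an Rx:GFP line carrying FKBP12F36V-HA at the C-terminus of endogenous Mettl3, the gene of the catalytic subunit of the mRNA m6A methyltransferase. FKBP12F36V is a degron, a tag through which the small molecule dTAG13 sends the tagged protein to the proteasome. The 2 untreated libraries received no dTAG13 (0 h), and the 2 dTAG13 libraries received 125 nM dTAG13 for 8 h, so the degron allele was present in both groups. Each library had its own genotype text, naming Mettl3, Mettl4, Mettl5 or Mettl6. The series title and design name METTL3 for all of them, which was followed here. Nothing in the labels says whether replicates were separate organoid batches, so any spread between them may be technical.

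Immediate-early genes are transcribed within minutes of a growth factor, stress or handling signal, without new protein synthesis, and their mRNAs are then removed quickly. Fos and the Jun proteins pair to form the transcription factor AP-1, Egr1 is a zinc finger transcription factor of the same early wave, and Atf3 is a stress-induced partner of the Jun proteins. Ier2 and Ier5 encode small nuclear regulators, and Btg2 encodes an antiproliferative protein that binds the CCR4-NOT deadenylase, which shortens polyA tails. In general, m6A promotes the decay of many mRNAs through reader proteins, and the series title and design concern m6A written by METTL3 in retinal development. Jun, Junb, Jund, Ier2 and Ier5 are intronless genes, whereas Fos, Egr1, Atf3 and Btg2 have introns.

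Sequence around the sites was not used here, since no genome came with the tables. The promoters of Fos and Btg2 are shown because both genes had fewer listed sites in the dTAG13 libraries and the lower coverage in every dTAG13 library that listed them. RefSeq windows (GRCm38.p6, 250 bases before to 50 after the start) were matched for 7 of the 9 genes, and Ier2 and Egr1 had no entry. Capitals mark the full cAMP response element TGACGTCA, its TGACG part and TATAAA, each searched on both strands. The TGACG part also lies inside the full element.
Fos promoter, chr12:85473640-85473939, plus strand: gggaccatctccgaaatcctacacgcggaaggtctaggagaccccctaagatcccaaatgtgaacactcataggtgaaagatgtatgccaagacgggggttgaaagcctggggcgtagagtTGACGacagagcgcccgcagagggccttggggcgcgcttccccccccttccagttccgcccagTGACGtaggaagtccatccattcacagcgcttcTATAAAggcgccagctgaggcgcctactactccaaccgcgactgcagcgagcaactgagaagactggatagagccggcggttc
Btg2 promoter, chr1:134079106-134079405, minus strand: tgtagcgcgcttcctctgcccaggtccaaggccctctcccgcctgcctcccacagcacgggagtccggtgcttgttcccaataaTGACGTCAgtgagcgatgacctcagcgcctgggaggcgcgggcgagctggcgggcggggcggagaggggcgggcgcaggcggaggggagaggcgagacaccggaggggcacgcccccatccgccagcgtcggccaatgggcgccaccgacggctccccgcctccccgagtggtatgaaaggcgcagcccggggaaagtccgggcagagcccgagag
The full element was in 1 of the 7 windows (Btg2), against 1.79% of 32851 promoter windows. TGACG was in 4 (Fos, Btg2, Atf3 and Junb; 20.8% of all windows), and TATAAA was in 2 (Fos and Junb; 13.6%). These matches describe the windows and were not tested for a role in the values below.

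The untreated libraries listed 335607 and 350462 sites in all and the dTAG13 libraries 220034 and 263069, with median reads per site between 75 and 91. The smallest values among listed sites were 15 reads in all, 5 of them A, and 10% for the level. An unlisted position can therefore be unmethylated, under these limits or uncovered. The retinal progenitor markers Rax, Pax6, Six3, Six6, Lhx2 and Sox2 were listed in every library. The 6 pluripotency markers, among them Klf2, which is also an early response gene, were also listed in every library (summed coverage 1045 and 1026 against 731 and 1046). The pigment epithelium markers Mitf, Tyrp1 and Pmel, the forebrain marker Emx2, the neuronal marker Tubb3 and the endoderm marker Sox17 were also listed in every library. Elavl3, Foxa2 and Gata6 were listed in untreated replicate 1 only, Atoh7 and Isl1 in untreated replicate 2 only and Sox10 in dTAG13 replicate 1 only, and Foxd3 was listed in 3 libraries. Nkx2-1, T and Tbx6 were listed in none. The part of other cell types in the values below was not tested.

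Fewer sites were listed in the immediate-early genes with dTAG13. Their listed sites came to 152 and 195 in untreated replicates 1 and 2 and to 67 and 76 in dTAG13 replicates 1 and 2. Neither dTAG13 library reached the lower untreated count. The means were 173.5 ± 30.4 and 71.5 ± 6.36 (SD, n = 2 each), a ratio of 0.412. An exact permutation test, two-sided, returned p = 0.333, and 2 against 2 libraries can give nothing smaller. Over all sites placed in genes, the counts were 260741 and 272174 against 178739 and 201935, a ratio of 0.714. In the 7 members listed in all 4 libraries the ratio was 0.485, a subset formed after the values were seen. It was 0.645 once their sites were divided by their summed coverage. The 0.714 over all genes was not divided by coverage, so it has no like value beside the 0.645.

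Of the 8 members with at least 10 listed sites over the 4 libraries, 5 (Fos, Jun, Egr1, Ier5 and Btg2) had fewer sites in both dTAG13 libraries than in either untreated library. That order held for 46.4% of 12449 genes with as many sites. Only 1 member, Jund, had the opposite order, which held for 4.51% of genes. The groups overlapped for Ier2 and Atf3. The median ratio of dTAG13 to untreated sites was 0.356 over the 8 members and 0.700 over all such genes. Junb, with 3 listed sites in all, was below the limit of 10.

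**Figure D1:**
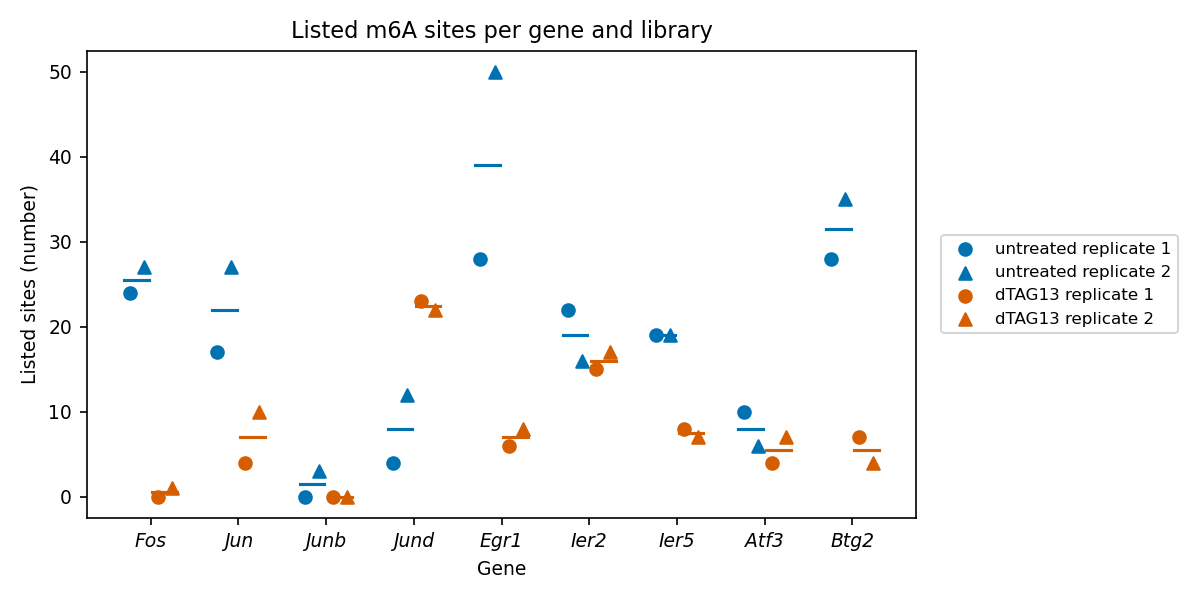
Number of listed m6A sites (vertical axis) in each immediate-early gene (horizontal axis), 1 point per library, with the mean of each group of 2 as a bar. Fos went from 24 and 27 sites to 0 and 1, and Jund from 4 and 12 to 23 and 22.

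Fos, the AP-1 subunit that sets the classic early pulse, had the fewest sites left. Its 24 and 27 untreated sites were spread over 3250 bases, from chr12:85520744 to chr12:85523993 on the plus strand, at 18 to 20 per library beyond the midpoint of that span. With dTAG13, replicate 1 listed none and replicate 2 listed 1, at chr12:85523045, where 117 of 122 reads were A (95.9%). Of 7464 genes with at least 10 sites in both untreated libraries, 21 (0.281%) had no listed site in at least 1 dTAG13 library. That criterion was chosen after the Fos values were seen. It takes genes by their untreated counts, so only losses can meet it, and the reverse case was not counted. The criterion was met by 1 of the 6 members with that many sites (Fos). In the wider list described below, it was met by 2 of 24 response genes (Fosb and Ccn1) and by 0 of 14 genes upstream of them.

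Only 2 positions of Fos were shared by the untreated libraries, and they lie 55 bases apart. At chr12:85523080 the level was 78.5% (128 of 163 reads, Wilson 95% interval 71.6 to 84.1%) in untreated replicate 1 and 38.8% (408 of 1051, 35.9 to 41.8%) in replicate 2. At chr12:85523135 it was 82.6% (57 of 69) and 40.7% (258 of 634). At both positions the more deeply read library gave the lower level. Intervals cover counting error only, because independence of the reads is not established here, and these replicates differed by more than that error. The level summed over all listed Fos sites was 30.7% in untreated replicate 1 and 21.2% in replicate 2.

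Jun, the main partner of Fos, counted 17 and 27 untreated sites and 4 and 10 after dTAG13, within chr4:94937348-94940387 (minus strand). The ratio was 0.318, and 0.494 after division by coverage. With single libraries left out it ran from 0.182 (without dTAG13 replicate 2) to 0.455 (without dTAG13 replicate 1). The untreated sites were mostly of low or middle level, with medians of 31.2% and 32.4%. All 4 sites of dTAG13 replicate 1 were at 94.4 to 100%, and 5 of the 10 in replicate 2 were at 90% or more. The summed level was 40.1% and 33.5% untreated and 96.6% and 79.6% with dTAG13, so the groups did not overlap (51.3 points higher; exact permutation p = 0.333). The sites behind those levels differed: no Jun position was listed in both groups. They also rested on few reads in dTAG13 replicate 1, with 18 to 58 per site. The position with the most A reads, chr4:94939848 with 268 of 268, was listed in dTAG13 replicate 2 alone.

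The untreated pair shared 3 Jun positions. At chr4:94940329, near the upstream end of the listed span, the level was 57.1% (40 of 70 reads) and 55.2% (74 of 134), and the Wilson intervals of 45.5 to 68.1% and 46.8 to 63.4% overlapped. At chr4:94938051 it was 35.7% (25 of 70) and 19.7% (15 of 76). At chr4:94939822 it was 19.2% (Wilson interval 12.8 to 27.8%) and 51.2% (22 of 43; 36.8 to 65.4%), 31.9 points apart and without overlap of the intervals.

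Junb, an AP-1 subunit that can restrain Jun, was listed in untreated replicate 2 only. Its 3 sites on chromosome 8 (minus strand) were at 14.3% (11 of 77 reads, chr8:85704806), 20.8% (15 of 72, chr8:85703930) and 100% (36 of 36, chr8:85703715). Its gene coverage there, the authors' unscaled value per gene, was 52.6, and the other libraries did not list the gene.

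Jund, the AP-1 subunit that is present in resting cells, ran the other way. It counted 4 and 12 untreated sites and 23 and 22 after dTAG13, within chr8:71151654-71153260 (plus strand). Its gene coverage, 601 and 808 against 484 and 805, overlapped between groups. Most sites were low, with 18 of 23 and 14 of 22 below 30% in the dTAG13 libraries. The summed level was 25.4% and 22.9% untreated and 18.1% and 17.5% with dTAG13, so the groups did not overlap (-6.41 points), but with each site weighted equally the difference was 2.91 points. The ratio of sites was 2.81. With single libraries left out it ran from 1.875 (without untreated replicate 1) to 5.62 (without untreated replicate 2).

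One Jund position was listed in 3 libraries: chr8:71151857 was at 25.9% (72 of 278 reads) and 15.2% (57 of 375) untreated and at 51.3% (40 of 78) in dTAG13 replicate 2. At chr8:71152262, listed in both dTAG13 libraries alone, the level was 10.7% (19 of 177; Wilson interval 7.0 to 16.2%) and 30.2% (87 of 288; 25.2 to 35.7%). It was the only position of any member shared by the dTAG13 pair. At chr8:71152410 the level was 48.1% (136 of 283) in untreated replicate 2 and 29.3% (17 of 58) in dTAG13 replicate 1. The most A reads, 11.7% of 2644, fell at chr8:71152825 in dTAG13 replicate 2. None of these differences had a replicate on both sides to test it.

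Egr1, which binds GC-rich promoters after growth factor signals, had the most listed positions of the 9 genes, 85 within chr18:34994332-34997968 (plus strand). It had 28 and 50 sites untreated and 6 and 8 with dTAG13, a ratio of 0.179, which was 0.375 after division by coverage. The numbers differed between the untreated replicates, yet both exceeded both dTAG13 libraries. Of the 78 untreated listings, 17 and 33 were below 30%. In the dTAG13 libraries 3 of 6 and 3 of 8 were at 90% or more, at 15 to 146 reads per site. The summed level was 28.3% and 25.1% untreated and 69.2% and 37.4% with dTAG13, without overlap (26.6 points higher; exact permutation p = 0.333). That difference was 10.7 points without dTAG13 replicate 1, and only 1 of the 85 positions was listed in both groups.

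The untreated pair shared 6 Egr1 positions, more than in any other member. At chr18:34997017 the levels were 47.6% (40 of 84 reads) and 47.1% (301 of 639), and at chr18:34997770 they were 77.9% (127 of 163) and 72.9% (188 of 258). At chr18:34995904 they were 15.8% and 18.7%. At these 3 positions the Wilson intervals of the replicates overlapped. At the other 3 they did not: chr18:34995857 was at 26.5% (68 of 257) and 98.7% (78 of 79), chr18:34997234 at 84.4% and 34.2%, and chr18:34997507 at 24.1% and 10.9%. None of the 6 was listed with dTAG13. The most A reads in Egr1 were 401 of 436 (92.0%), at chr18:34997069 in untreated replicate 2.

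Atf3, the stress-induced factor, was set apart by near-complete sites in the untreated libraries. It had 10 and 6 listed sites untreated and 4 and 7 with dTAG13, all on the minus strand of chromosome 1 between 190902515 and 190915476, with 10 and 5 of the untreated sites beyond the midpoint of that interval. The untreated medians were 99.6% and 98.4%. With dTAG13 they were 44.1% in replicate 1 and 98.9% in replicate 2, so the medians overlapped between groups. Its 3 shared untreated positions were at 99.3% and 100% (chr1:190902652; 139 of 140 and 36 of 36 reads), 100% and 96.9% (chr1:190903205), and 88.5% and 100% (chr1:190903276). Of these, 2 rested on 21 to 32 reads. None was listed with dTAG13, although dTAG13 replicate 2 listed chr1:190902655, 3 bases from the first, at 174 of 174 reads. The summed level was 82.5% and 78.2% against 42.1% and 60.9%, a difference of -28.8 points without overlap, over different sites.

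Ier2 had nearly as many listed sites in both groups, 22 and 16 untreated against 15 and 17 with dTAG13, within chr8:85387989-85389384 (minus strand). It was also the member with the most positions listed in both groups, 10 of 55. At chr8:85388801 the level was 22.1% (80 of 362 reads) and 20.8% (84 of 403) untreated and 32.7% (120 of 367) in dTAG13 replicate 2. At chr8:85388827 it was 29.2% (26 of 89) and 41.6% (133 of 320) against 23.2% (29 of 125). The dTAG13 level was thus above both untreated levels at one position and below both at the other, 26 bases away. Between them, chr8:85388820 was at 35.1% and 38.7% in the untreated pair and unlisted with dTAG13.

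The place of the Ier2 sites differed between the groups, a pattern picked out after the values were seen and not tested. Untreated sites lay downstream of the midpoint of the listed span in 7 of 22 and 5 of 16 cases, and dTAG13 sites in 12 of 15 and 10 of 17. The most A reads, 742 of 743, fell at chr8:85388476 in untreated replicate 1. The same position was at 11.8% (13 of 110) in dTAG13 replicate 1 and unlisted in the other libraries, so its 99.9% had no support from the second untreated library. Without untreated replicate 1 the change in the summed level turned from -9.20 to 1.66 points. At chr8:85389115 a level of 40.6% (13 of 32) in untreated replicate 1 stood against 100% (85 of 85) in dTAG13 replicate 1. The remaining untreated pair positions were chr8:85389358, at 23.5% and 23.6%, and chr8:85388187, at 43.5% and 55.6%.

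Ier5 had 19 sites in each untreated library and 8 and 7 with dTAG13, within chr1:154973065-154975322 (minus strand). It held the near-complete position with the most reads among those shared by the untreated pair. At chr1:154973705 the level was 99.4% (157 of 158 reads; Wilson interval 96.5 to 99.9%) and 98.1% (616 of 628; 96.7 to 98.9%) in the untreated libraries, and neither dTAG13 library listed the position. Gene coverage of Ier5 was 77.1 and 134 untreated and 102 and 104 with dTAG13, so the groups overlapped. At chr1:154974028, by contrast, the untreated levels were 95.1% (137 of 144) and 36.1% (26 of 72). The summed level was 51.0% and 48.9% untreated and 31.7% and 23.4% with dTAG13, which did not overlap (-22.4 points, exact permutation p = 0.333). With sites weighted equally it differed by -3.18 points.

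Btg2, the deadenylation factor, had 28 and 35 listed sites untreated and 7 and 4 with dTAG13, within chr1:134003152-134006776 (minus strand). The ratio was 0.175, and 0.306 after division by coverage. The summed level was 26.6% and 27.0% untreated and 51.1% and 33.9% with dTAG13, without overlap (15.7 points higher; exact permutation p = 0.333). That difference was 7.09 points without dTAG13 replicate 1, and only 2 of the 69 positions were listed in both groups. The position listed in 3 libraries, chr1:134004141, was at 17.2% (60 of 348 reads) and 21.8% (104 of 477) untreated and at 24.7% (40 of 162; Wilson interval 18.7 to 31.9%) in dTAG13 replicate 2. The 3 Wilson intervals overlapped, and the difference was not tested. At chr1:134003907 the untreated levels were 31.2% and 15.7%, and at chr1:134004419 they were 100% (81 of 81) and 40.1% (77 of 192), both unlisted with dTAG13. The most A reads were 336 of 797 (42.2%), at chr1:134004199 in untreated replicate 1.

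**Figure D2:**
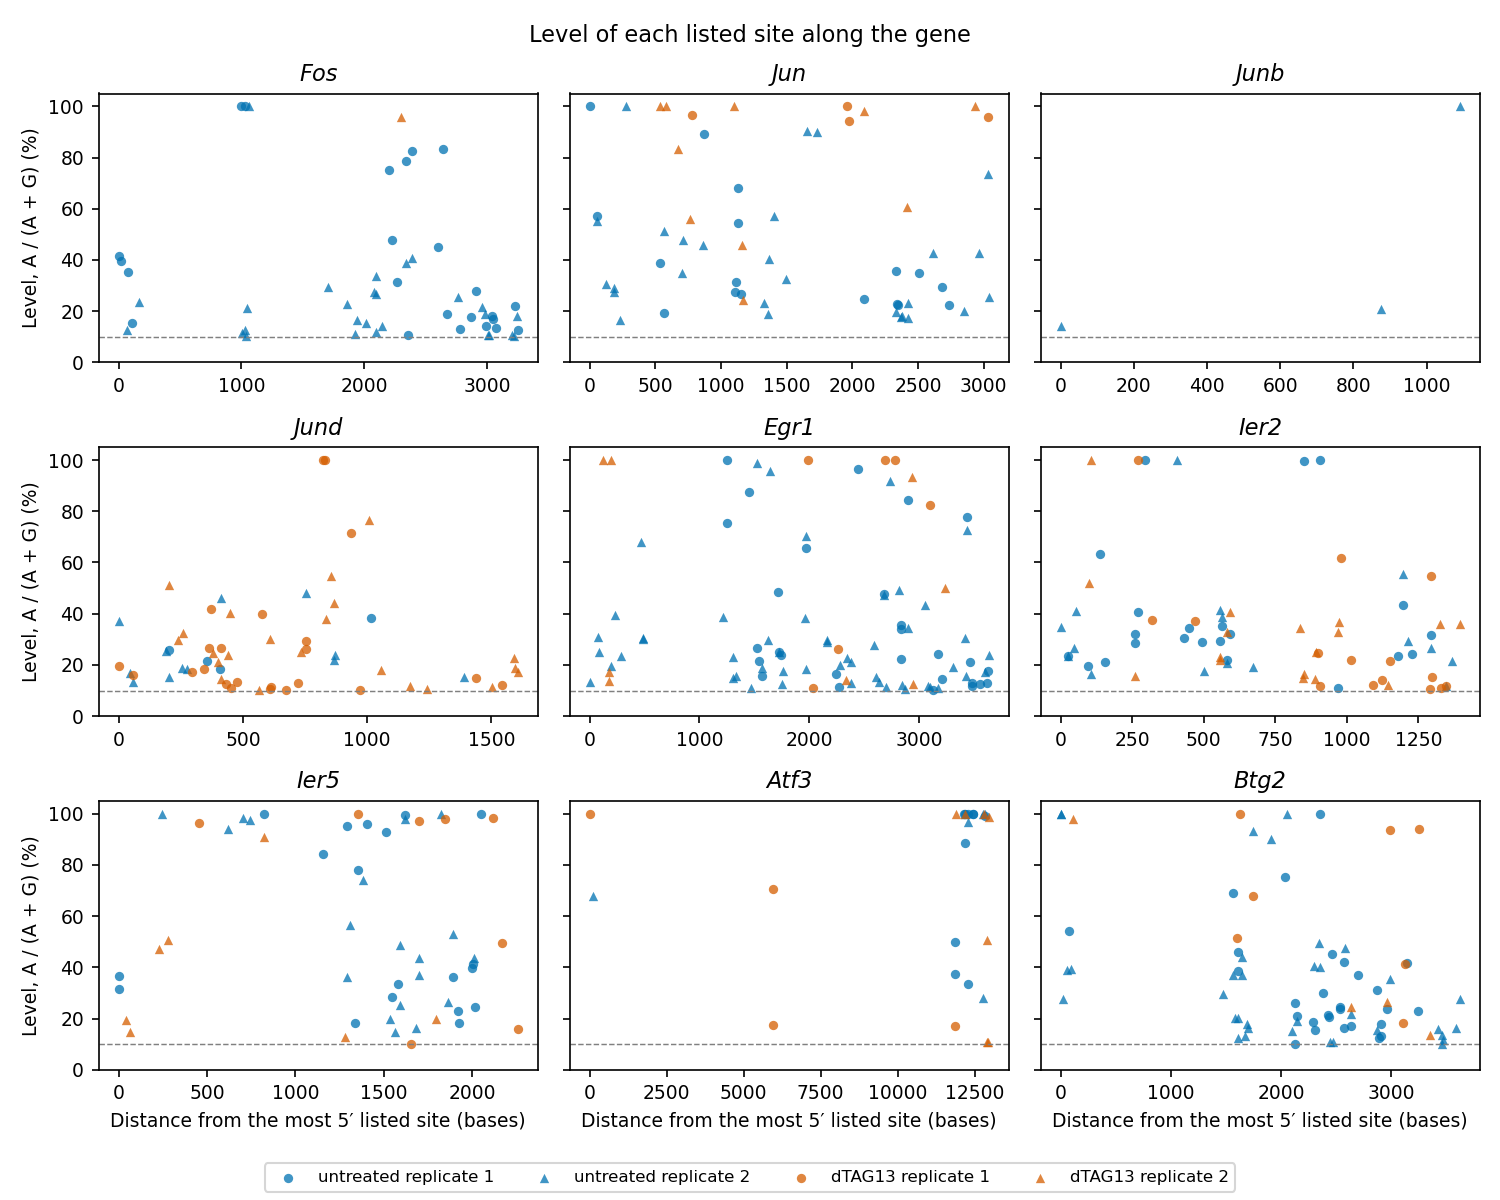
Level of every listed site (vertical axis, percent of A among A and G reads) against its distance in bases from the most upstream listed site of the gene (horizontal axis), 1 panel per gene, colours for groups and symbols for replicates. The dashed line is at 10%, the lowest level listed. Untreated points dominate in Fos, Egr1 and Btg2 and dTAG13 points in Jund, and the 9 genes hold 443 positions in all.

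Over the 9 genes the sites of low and middle level were fewer with dTAG13, and near-complete sites differed less. Sites below 30% numbered 72 and 115 untreated and 35 and 36 with dTAG13. Sites at 30 to 90% numbered 59 and 56 against 13 and 24, and sites at 90% or more 21 and 24 against 19 and 16. The groups did not overlap in any of the 3 classes, and the ratios were 0.380, 0.322 and 0.778. The number of all sites in genes was also lower with dTAG13 without overlap, at a ratio of 0.714. Ratios by class were not made over all genes. Near-complete sites therefore made up 13.8% and 12.3% of the untreated and 28.4% and 21.1% of the dTAG13 sites. Over all sites in genes the same shares were 15.8% and 14.5% against 17.6% and 18.4%. The near-complete sites were read less deeply, with a median of 30 to 58 reads per library against 174.5 to 216 for sites below 30%.

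The summed level over the 9 genes was 34.9% and 26.9% untreated and 25.9% and 27.7% with dTAG13. The group means were 30.9% ± 5.60 and 26.8% ± 1.33 (SD, n = 2 per group), a gap smaller than the untreated SD (exact permutation p = 0.667). With each site weighted equally the difference turned from -4.11 to 6.04 points. By gene, the summed level was higher with dTAG13 without overlap in Jun, Egr1 and Btg2. It was lower without overlap in Jund, Ier5 and Atf3. For each of these genes the exact permutation p was 0.333, the smallest that this number of libraries can give. How often either order held over all genes was not counted, so these orders have no background beside them.

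Few positions were listed more than once. Of the 443 positions, 400 (90.3%) were listed in 1 library, 39 in 2 and 4 in 3, and 0 were listed in all 4. Over all 833043 positions in genes the share listed once was 91.4%, and 1219 positions were listed in all 4 libraries. Listing in all 4 was thus rare in general. Since no member position was listed in every library, 0 of the 2321 sites that could be tested across all 4 libraries belonged to these genes. Among the tested sites 53 (2.28%) passed the quasi-binomial test, 51 of them lower with dTAG13, but 0 passed with either dTAG13 library left out or with the replicate block. By group, 301 positions were listed in untreated libraries only, 122 in dTAG13 libraries only and 20 in both.

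The untreated pair shared 26 member positions. The median absolute difference in level there was 11.8 points, with 11 positions within 10 points and 5 more than 40 points apart. Over the 25086 genic positions shared by the same pair, the median difference was 9.67 points. The 4 pairs of an untreated and a dTAG13 library shared 24 member positions in all, some of them counted in 2 pairs, with a median difference of 20.3 points, 6 within 10 points and 5 over 40 points. The largest difference was 72.3 points in the untreated pair and 88.05 points between groups. Over all genic positions the medians of the 4 pairs between groups ran from 9.33 to 9.66 points. Of the 20 member positions listed in both groups, Ier2 held 10 and Jund 5, and Fos, Jun and Atf3 held none. Those last genes did hold positions shared by the untreated pair, so the members' medians rest on different genes. The difference between the members' medians was not tested.

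**Figure D3:**
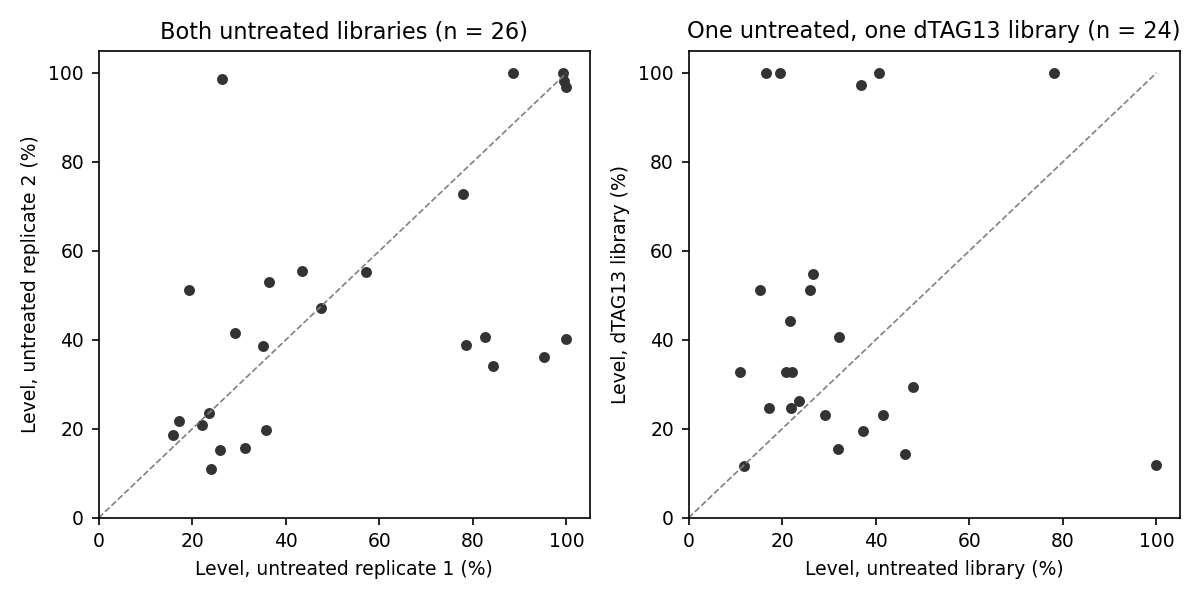
Levels in percent at member positions listed in 2 libraries, the untreated pair on the left (26 positions) and pairs of an untreated and a dTAG13 library on the right (24 pairs). Each point is a position in a pair of libraries, and the dashed line marks equal levels. Points lie far from the line in both panels, 5 of them by more than 40 points in each.

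Gene coverage, the authors' value per gene and library, served as a measure of these short-lived transcripts. Listed sites held a median of 0.820 to 0.847 times the coverage of their gene in reads, so coverage is on the scale of reads per position. It is not scaled to depth, and was therefore divided by the library median of 12520 genes, those with a value everywhere (99.2, 103.2, 82.4 and 110.9). No gene passed the test of coverage: limma on log2 coverage called 0 of the 12520 genes (0%) and 0 of the 7 members tested, with 1595 genes and 2 members at an unadjusted p under 0.05. Fos and Junb lacked a value in at least 1 library and were not tested.

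Ier2 and Btg2 had the clearest separation. Relative to the library median, Ier2 was at 3.11 and 3.20 untreated and at 1.91 and 1.54 with dTAG13. Its log2 difference was -0.88 ± 0.21 (SE, n = 2 per group; limma adjusted p = 0.363, unadjusted 0.0067). Btg2 was at 1.52 in both untreated libraries and at 0.944 and 1.03 with dTAG13, a log2 difference of -0.63 ± 0.20 (adjusted p = 0.363, unadjusted 0.0201). In both genes each dTAG13 library lay below each untreated library, which also held for 29.2% of the 12520 genes, so 2 of 7 members is close to the background. Atf3 had the opposite order, 0.570 and 0.460 against 0.612 and 0.825, which held for 17.0% of genes (log2 difference 0.47 ± 0.25, adjusted p = 0.458). The Atf3 difference was 0.26 without dTAG13 replicate 2.

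The other tested members overlapped between groups. Jun was at 0.779 and 1.32 untreated and 0.534 and 0.780 with dTAG13 (log2 difference -0.65 ± 0.34, adjusted p = 0.452). Egr1 was at 1.46 and 3.08 against 2.02 and 0.757 (-0.78 ± 0.55, adjusted p = 0.570). The 95% interval for Egr1 ran from -2.14 to 0.58, so neither a large fall nor a moderate rise could be told from no change. Jund was at 6.06 and 7.83 against 5.88 and 7.26 (-0.08 ± 0.24), and Ier5 at 0.777 and 1.30 against 1.24 and 0.942 (0.11 ± 0.31). The adjusted p was 0.909 for Jund and 0.903 for Ier5, and the sign of both turned when single libraries were left out. Fos, with no test, was at 2.03 and 3.61 untreated and at 1.18 in dTAG13 replicate 2.

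By mean untreated coverage the order was Jund (6.95 ± 1.26), Ier2 (3.15 ± 0.069), Fos (2.82 ± 1.12), Egr1 (2.27 ± 1.14), Btg2 (1.52 ± 0.000177), Jun (1.05 ± 0.38), Ier5 (1.04 ± 0.37) and Atf3 (0.515 ± 0.078; SD, n = 2). Jund stood above all others in every library. Ier2, Fos and Egr1 did not differ beyond their spread, nor did Jun and Ier5.

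The untreated replicates were themselves apart for part of the set. Relative to the library median, untreated replicate 2 exceeded replicate 1 by 2.11 times in Egr1, 1.78 times in Fos, 1.70 times in Jun and 1.67 times in Ier5, and Junb was listed in replicate 2 only. For Ier2 and Btg2 the ratio was 1.03 and 1.00, and for Atf3 0.807. The median over all genes was 1.01, and 6.74% of genes exceeded 1.5. Single libraries of both groups moved the log2 differences. That of Egr1 went from -0.78 to -0.24 without untreated replicate 2 and to -0.07 without dTAG13 replicate 2, and to -1.32 and -1.49 without replicate 1 of either group. That of Jun went from -0.65 to -0.27 without untreated replicate 2, -0.38 without dTAG13 replicate 1 and -1.03 without untreated replicate 1. Fewer cells in an early response and less RNA per cell cannot be told apart in bulk RNA.

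**Figure D4:**
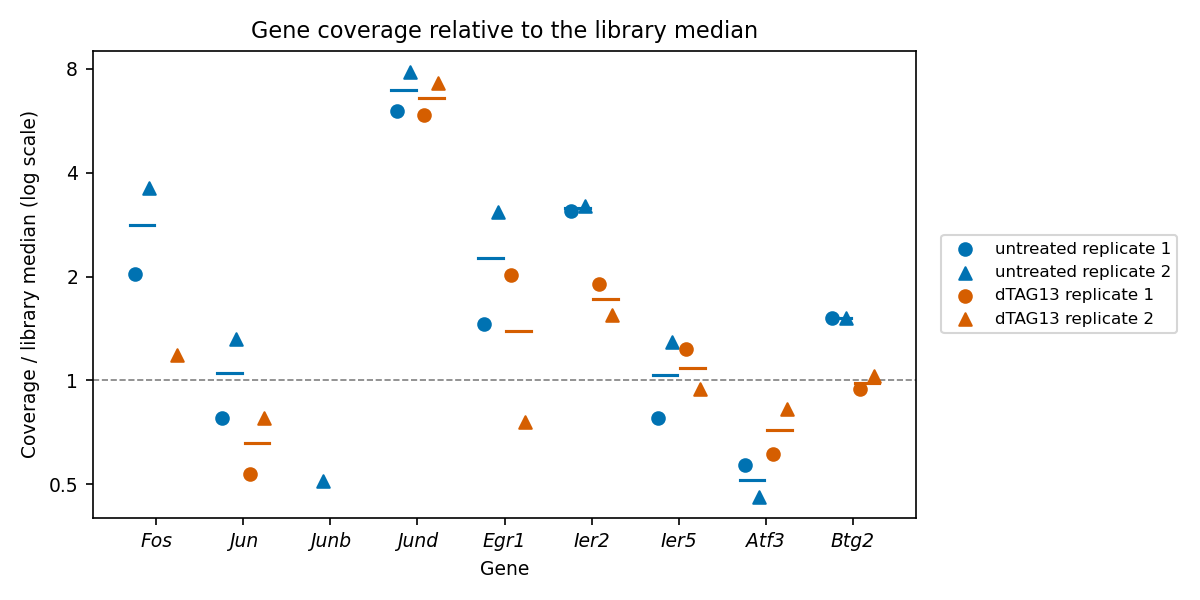
Gene coverage divided by the library median (vertical axis, log scale) for each gene, 1 point per library, with group means as bars where both libraries have a value and a dashed line at 1. Ier2 and Btg2 are lower in both dTAG13 libraries, Egr1 overlaps, and Junb has 1 point because it was listed in 1 library.

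The conversion rate of a gene, the share of its A read as G, takes in both unmethylated A and the efficiency of the chemistry. It was higher in both dTAG13 libraries than in either untreated library for 6 of the 7 members with 4 values, an order that held for 40.9% of 12520 genes. It was lower in both for 0 of 7, against 6.05% of genes. Fos, not among these 7, was at 96.5% and 96.0% untreated. Its value in dTAG13 replicate 2, the only dTAG13 library that listed it, was lower, at 93.5%. Ier5 went from 92.1% and 91.1% to 97.0% and 97.3%, the largest difference of the 7 at 5.58 points. Jund went from 89.3% and 92.5% to 96.2% and 95.1%, a difference of 4.73 points. Jun (92.7% and 92.2% against 96.8% and 94.3%) and Ier2 (92.8% in both against 96.3% and 94.3%) followed. Egr1 and Atf3 also did not overlap, and Btg2 did (94.6% and 96.0% against 98.3% and 94.2%). The median difference was 2.47 points over the 7 members and 0.666 points over all genes. For each of the 6 genes without overlap the exact permutation p was 0.333.

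In Jund the higher conversion rate with dTAG13 stood beside a larger number of listed sites, and in Jun, Egr1 and Ier5 beside a smaller one. In Ier2 and Atf3 it stood beside numbers of sites that overlapped between the groups. The members' untreated conversion rates, 89.3 to 97.0%, lay mostly below the library medians of 95.8% and 96.2%. The part of the conversion rate in the number of listed sites was not tested.

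**Figure D5:**
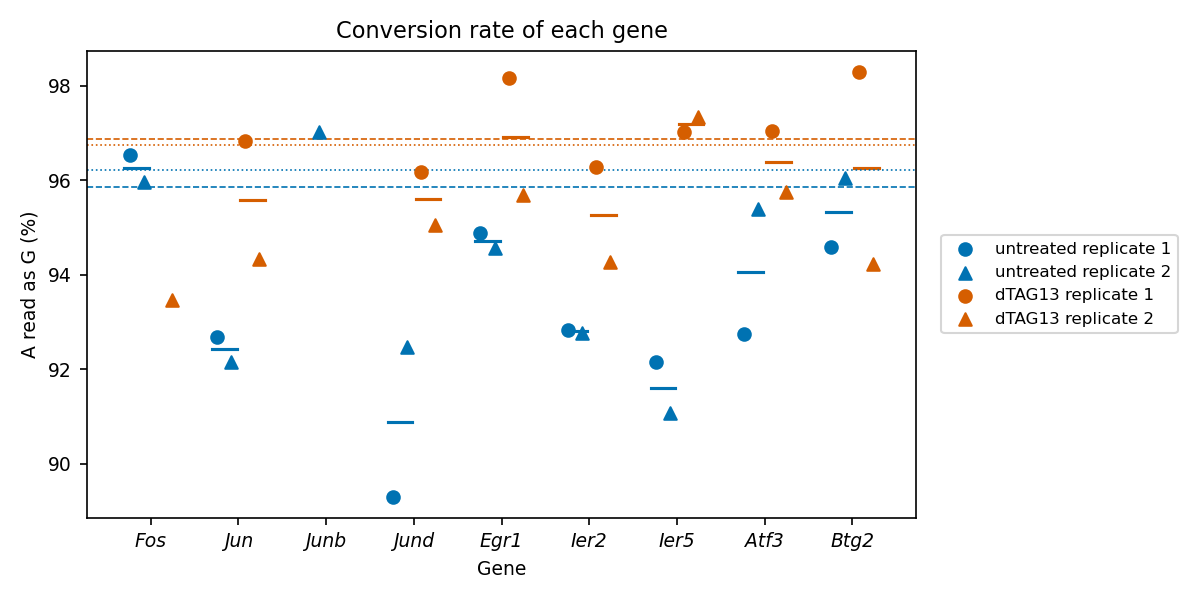
Conversion rate in percent (vertical axis) of each gene, 1 point per library, with group means as bars; the vertical axis does not start at 0. Dashed and dotted lines are the library medians over 12520 genes, in the colour of the group. Points of the dTAG13 libraries lie above those of the untreated libraries in Jun, Jund, Egr1, Ier2, Ier5 and Atf3. The only dTAG13 point of Fos lies below its untreated points.

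A wider list of 45 early response genes and 15 kinases and transcription factors upstream of them was read from the same fits. Of the response genes, 43 were listed in some library and 32 in all 4, and 0 passed the limma test of coverage in either direction. The median log2 difference of these 32 was -0.04, against -0.63 for the 7 members and -0.07 for all genes. Coverage is given only where a site is listed, so genes unlisted in any library are left out of these medians. Fosb, Egr2 and Npas4 had values in untreated libraries only, and Egr3 and Nr4a3 in dTAG13 libraries only. Ccn1, Ier3, Zfp36 and Arc lacked a value in 1 dTAG13 library, Dusp2 in 1 untreated library and Gadd45g in 1 of each group. The members' median was -0.24 without untreated replicate 2, -0.38 without dTAG13 replicate 1 and -0.23 without dTAG13 replicate 2. Coverage was lower in each dTAG13 library than in each untreated one for 10 of the 32, and higher for 7, near the shares of 29.2% and 17.0% over all genes. The lowest 3 were Rhob, a small GTPase (362 and 398 untreated against 178 and 218 in raw coverage, log2 difference -0.87 ± 0.20), Plk2, a polo-like kinase (-0.86 ± 0.26, and -0.57 without untreated replicate 2), and Dusp5, a nuclear ERK phosphatase (-0.79 ± 0.21). Each had an adjusted p of 0.363.

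The highest 3 were Klf4, Fosl2 and Gadd45b. Klf4, a zinc finger factor, was at 52.2 and 32.5 untreated and 62.3 and 189 with dTAG13, so its log2 difference of 1.48 ± 0.45 (adjusted p = 0.363) leaned on dTAG13 replicate 2 (0.89 without it). Fosl2, an AP-1 subunit, was at 90.3 and 42.0 against 95.8 and 108.0 (0.81 ± 0.40, adjusted p = 0.437), and its difference was 0.23 without untreated replicate 2 and 1.39 without untreated replicate 1. Gadd45b, a stress sensor, was at 97.1 and 102.2 against 153 and 175 (0.80 ± 0.21, adjusted p = 0.363).

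Fosb, the closest relative of Fos in the list, repeated its listing pattern: 16 and 31 sites untreated and 0 in both dTAG13 libraries. Ccn1, a secreted matrix protein induced by serum, had 27 and 28 untreated sites, 11 in dTAG13 replicate 1 and none in replicate 2. Over the list, listed sites came to 598 and 697 against 423 and 461, and 19 of the 36 genes with at least 10 sites had fewer in both dTAG13 libraries, 5 more. Over all genes these shares were 46.4% and 4.51%. For the upstream genes, which include Srf, Elk1, Creb1 and the MAP kinases, the totals were 540 and 539 against 315 and 337. There 12 of 15 were lower and 0 higher, and 0 of 15 passed the limma test of coverage, with 1 at an unadjusted p under 0.05. The median ratios of sites were 0.565 and 0.581, between the 0.356 of the members and the 0.700 of all genes.

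The genes whose coverage over the 4 libraries ran closest to the mean of the 7 members were Ap1b1, Prkag2 and Gm6340, with root mean square distances of 0.0138, 0.0200 and 0.0226 on the log2 scale, out of 12513 candidates. The members themselves lay at 0.197 (Jund) to 0.567 (Egr1) from their own mean. Ap1b1, Prkag2 and Gm6340 were picked as the closest of the 12513 candidates, so their smaller distances follow from that choice. Whether the members share a profile was not tested, since no typical distance over all genes is given.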

How the data were processed

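The authors deposited 1 site table per library, with replicates kept apart. Per the file headers, AGcov and Acov are counts of reads with A or G and with A; these deposited counts are not normalised. The level is the deposited fraction of A reads, equal to their ratio within 1e-05 at 100% of sites, and the conversion rate is a second deposited fraction, 1 value per gene. The authors' coverage signal is 1 unscaled value per gene and library. The headers define neither this value nor the conversion rate (CR), whose meaning was read from its name. The deposited p-values were at most 0.00401 after adjustment. The submitters' processing notes name mm10, but contig names in the tables are those of GRCm39, and 0 of the 443 member positions fell inside the GRCm38 interval of their gene. Coordinates are printed as listed, and exon, intron and UTR were not assigned. Aligner, caller and handling of duplicates are not given in the sources used here.

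Groups came from sample titles. Listed sites, levels and conversion rates were set against each other by exact permutation, two-sided. Coverage was tested with limma 3.58.1 (R 4.3.3) on log2 values centred on the library median. Benjamini-Hochberg adjustment ran over 12520 genes, with a threshold of 0.05. This step was also run on simulated data, but how often it finds a true change with so few libraries is not given here. Site levels were to be tested with a quasi-binomial model at sites with at least 20 reads in all 4 libraries. Named sites were those listed in 3 libraries, those listed in both libraries of 1 group alone with at least 50 reads in each, and per gene the highest shared level and the most A reads. Other response genes were named as the 3 highest and 3 lowest in coverage change. The members and lists were chosen with earlier results of these data known.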

Additional observations from a re-analysis of the deposited data

How the results depend on the processing

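The number of listed member sites stayed lower with dTAG13 throughout, at a ratio of 0.412, from 0.367 to 0.470 with single libraries left out and 0.645 after division by coverage in the 7 genes listed everywhere. With the replicate number as a block it was 0.414. Single genes turned for Ier2 after division by coverage (1.62) and for Atf3 with at least 30 reads (1.125). The summed level, -4.11 points, ran from -8.07 to -0.15 with single libraries left out and reversed to 6.04 with sites weighted equally. Jund (2.91) also reversed under equal weights, and Ier2 ran from -20.1 to 1.66 with single libraries left out, reversed without untreated replicate 1. Coverage calls among members and the response list stayed at 0 in every alternative, and over all genes rose from 0 to 15 without centring, the members' median then being -0.71. Jund coverage turned to 0.25 with quantile normalisation, 0.11 without untreated replicate 2 and 0.08 without dTAG13 replicate 1, and Ier5 to -0.26 without untreated replicate 1 and -0.09 without dTAG13 replicate 1, with 0.47 without untreated replicate 2. The site test, with no member site, called 53 of 2321 sites (2.28%), 0 to 25 with single libraries left out and 0 with the replicate block. A group left with 1 library was assumed to vary like the other. Deviations of same-numbered libraries did not correlate in coverage (r = 0.0023 over 12520 genes), so the numbers were not treated as pairs. For no reversal or move was the cause tested. With 2 libraries per group and 10% as the lowest listed level, loss of a site and a level just under the limit cannot be told apart.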
